A study of Arabidopsis thaliana with 12 samples.

Results

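The xyloglucan endotransglucosylase/hydrolase (XTH) family of *Arabidopsis thaliana* was followed in roots of wild-type (WT) and *GmNTL4*-overexpressing (OX) plants grown with or without aluminum (Al). Its 33 members, *XTH1* to *XTH33*, were chosen by gene identifier and not by expression, and all 33 were found among the 25872 genes of the expression table. The 12 RNA-seq libraries fell into 4 groups of 3, namely WT control, OX control, WT Al and OX Al. Each Al group received 5 µM AlCl3 in nutrient solution. Sample labels give 24 h of Al, and the series' design text gives 48 h. OX plants carried the soybean membrane-bound NAC factor gene *GmNTL4* behind the constitutive 35S promoter, and how many transgenic lines entered the libraries is not given in the sources used here. The samples were whole roots, so fewer cells of a type and less RNA per cell cannot be told apart. Nothing in the labels says that replicates came from separate cultures, so the p-values measure only the spread between these samples, which may be technical.

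XTH enzymes cut xyloglucan, the main hemicellulose that coats cellulose in the primary wall, and join the cut end to another xyloglucan chain (endotransglucosylase action) or to water (hydrolase action). They are known for loosening and rebuilding the wall of growing cells, and in Arabidopsis roots the hemicellulose they act on binds Al. Mutants of *XTH17* and of *XTH31*, whose products work together on xyloglucan, are known to hold less Al in the root wall. The family is usually split into group I (*XTH1* to *XTH11*), group II (*XTH12* to *XTH26*) and group III, of which IIIA (*XTH31* and *XTH32*) is known for hydrolase activity, and IIIB holds *XTH27* to *XTH30* and *XTH33*.

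Several of the members described below are neighbors on the chromosomes (TAIR10.1, RefSeq annotation). *XTH12* (AT5G57530), *XTH13* (AT5G57540), *XTH25* (AT5G57550) and *XTH22* (AT5G57560) followed each other on the minus strand of chromosome 5, with 1097, 686 and 565 bases between the gene models. On chromosome 4, *XTH23* (AT4G25810) and *XTH14* (AT4G25820) lay 363 bases apart, and *XTH24* (AT4G30270), *XTH18* (AT4G30280) and *XTH19* (AT4G30290) lay within gaps of 5161 and 1500 bases. The coding sequences of *XTH17* and *XTH18* were identical at 92.2% of aligned bases, those of *XTH12* and *XTH13* at 89.7%, and those of *XTH18* and *XTH19* at 88.8%. The longest run of identical bases in any pair of coding sequences was 68, in *XTH18* and *XTH19*. The reads of the paper's sequencing strategy were longer than this run. Whether reads of these close copies were lost or misplaced in the counting was not tested.

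The 250 bases upstream of the annotated gene starts are shown for 9 members. *XTH12*, *XTH13*, *XTH14* and *XTH26* are shown because the OX control libraries of all 4 lay above every WT control and every OX Al library, *XTH18*, *XTH22*, *XTH23* and *XTH25* because they rose with Al, and *XTH17* because it is the closest copy of *XTH18* and was lower in OX roots under Al. Capitals mark CATGT, the core motif that NAC factors are known to bind, and CGCGTT, the core motif of CAMTA factors. Both were searched on either strand, so that the reverse complements ACATG and AACGCG are also in capitals, and ACATGT counts as one CATGT on each strand.
*XTH12* (chr5:23301690-23301939, minus strand): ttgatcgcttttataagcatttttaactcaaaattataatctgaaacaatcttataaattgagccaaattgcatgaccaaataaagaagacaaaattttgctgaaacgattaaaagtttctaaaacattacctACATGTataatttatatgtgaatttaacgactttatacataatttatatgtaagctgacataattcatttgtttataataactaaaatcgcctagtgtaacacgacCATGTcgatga
*XTH13* (chr5:23304096-23304345, minus strand): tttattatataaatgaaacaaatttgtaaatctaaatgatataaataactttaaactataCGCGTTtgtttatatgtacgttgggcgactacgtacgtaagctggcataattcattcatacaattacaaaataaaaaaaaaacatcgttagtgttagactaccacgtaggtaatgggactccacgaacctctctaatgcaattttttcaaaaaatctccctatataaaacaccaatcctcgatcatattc
*XTH14* (chr4:13130041-13130290, plus strand): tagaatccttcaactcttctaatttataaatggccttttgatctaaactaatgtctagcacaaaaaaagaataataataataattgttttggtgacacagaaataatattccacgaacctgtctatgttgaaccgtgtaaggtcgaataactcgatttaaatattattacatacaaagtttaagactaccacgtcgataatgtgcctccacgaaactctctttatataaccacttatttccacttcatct
*XTH26* (chr4:14244040-14244289, plus strand): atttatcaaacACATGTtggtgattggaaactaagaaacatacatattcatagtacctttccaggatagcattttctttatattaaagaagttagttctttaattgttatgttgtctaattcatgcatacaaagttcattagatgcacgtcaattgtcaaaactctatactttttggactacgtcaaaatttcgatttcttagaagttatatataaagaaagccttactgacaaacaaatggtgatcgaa
*XTH18* (chr4:14827212-14827461, minus strand): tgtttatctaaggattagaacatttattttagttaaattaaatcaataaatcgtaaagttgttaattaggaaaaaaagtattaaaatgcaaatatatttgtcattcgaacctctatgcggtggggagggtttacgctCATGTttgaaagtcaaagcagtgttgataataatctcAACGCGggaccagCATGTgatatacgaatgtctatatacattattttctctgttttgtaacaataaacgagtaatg
*XTH22* (chr5:23308681-23308930, minus strand): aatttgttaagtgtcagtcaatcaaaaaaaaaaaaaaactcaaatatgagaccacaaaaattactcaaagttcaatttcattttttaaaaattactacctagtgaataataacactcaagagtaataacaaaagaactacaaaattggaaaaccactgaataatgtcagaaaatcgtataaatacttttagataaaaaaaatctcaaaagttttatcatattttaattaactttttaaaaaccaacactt
*XTH23* (chr4:13128144-13128393, plus strand): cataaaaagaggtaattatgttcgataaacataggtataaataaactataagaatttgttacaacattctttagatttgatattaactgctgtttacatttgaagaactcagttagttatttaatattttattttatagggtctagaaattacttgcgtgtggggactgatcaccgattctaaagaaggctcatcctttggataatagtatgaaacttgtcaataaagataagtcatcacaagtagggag
*XTH25* (chr5:23306441-23306690, minus strand): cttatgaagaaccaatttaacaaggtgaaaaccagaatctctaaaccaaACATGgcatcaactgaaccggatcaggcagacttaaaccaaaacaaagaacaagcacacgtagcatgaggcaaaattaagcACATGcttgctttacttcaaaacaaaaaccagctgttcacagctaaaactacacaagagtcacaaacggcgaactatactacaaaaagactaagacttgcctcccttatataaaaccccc
*XTH17* (chr1:24256804-24257053, plus strand): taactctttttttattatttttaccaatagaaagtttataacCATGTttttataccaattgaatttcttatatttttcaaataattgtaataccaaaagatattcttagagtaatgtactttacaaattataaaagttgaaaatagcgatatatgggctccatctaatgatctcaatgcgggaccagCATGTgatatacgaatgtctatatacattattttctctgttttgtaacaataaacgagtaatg
CATGT was found in this window in 15 of the 33 members, against 34.7% of 23950 genes, and CGCGTT in 3 of 33 (*XTH13*, *XTH18* and *XTH20*), against 2.73% of genes. In 1000 bases upstream, 28 of 33 members held CATGT (83.9% of genes) and 6 of 33 held CGCGTT (8.82% of genes). In the shorter window, of the first 4 members shown, *XTH12* and *XTH26* held CATGT, *XTH13* held CGCGTT and *XTH14* held neither. Of the 4 that rose with Al, *XTH18* and *XTH25* held CATGT, *XTH18* also CGCGTT, and *XTH22* and *XTH23* held neither. The windows of *XTH17* and *XTH18* ended in the same 73 bases, from position -73 to the last base before the gene start, with CATGT in both. The second longest run shared by any of the 528 pairs of members was 14 bases, and the median over pairs was 9. A match says only that the letters are there.

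Expression was read as FPKM, a count of fragments relative to transcript length and library total, so that levels can be compared between genes. Fragments read back from these values added up to 16162941 to 17136217 per library. A member was taken as root-expressed, and tested, when 3 or more of the 12 libraries reached 0.5 FPKM. This held for 29 of 33 members, and for 80.3% of all genes. All 15 members of group II, both of IIIA and all 5 of IIIB were root-expressed, but 7 of 11 in group I. The other 4 were *XTH1*, *XTH2*, *XTH3* and *XTH6*, of which *XTH2*, *XTH3* and *XTH6* had at most 18 fragments in any library. *XTH1* was listed at 0 in 11 libraries, and its only value above 0 does not allow a fragment count to be read back. *XTH3* had 0 to 2 fragments.

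Levels of the root-expressed members spanned more than 3 orders of magnitude. *XTH24*, first described from meristem transcripts, had by far the highest mean over the 12 libraries (1263 FPKM) and made up 30.5% to 68.5% of the summed FPKM of the family. It was followed by *XTH22* (212 FPKM), known as the touch-inducible gene *TCH4*, *XTH23* (139 FPKM), *XTH18* (127 FPKM) and *XTH30* (97.9 FPKM). *XTH4* (86.3 FPKM), *XTH27* (52.0 FPKM), *XTH14* (37.2 FPKM), *XTH15* (25.6 FPKM), *XTH28* (25.2 FPKM), *XTH31* (16.2 FPKM), *XTH19* (14.8 FPKM) and *XTH9* (10.6 FPKM) completed the 13 members with a mean of at least 10 FPKM. Of the 16 other root-expressed members, 11 had a mean from 1 to under 10 FPKM. Neighbors in this order were mostly not separated by their spread: the ranges over the 12 libraries overlapped between *XTH22* and *XTH23*, between *XTH23* and *XTH18*, and between *XTH30* and *XTH4*, and the lowest value of *XTH24* (256 FPKM) was below the highest of *XTH22* (506 FPKM).

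**Figure D1:**
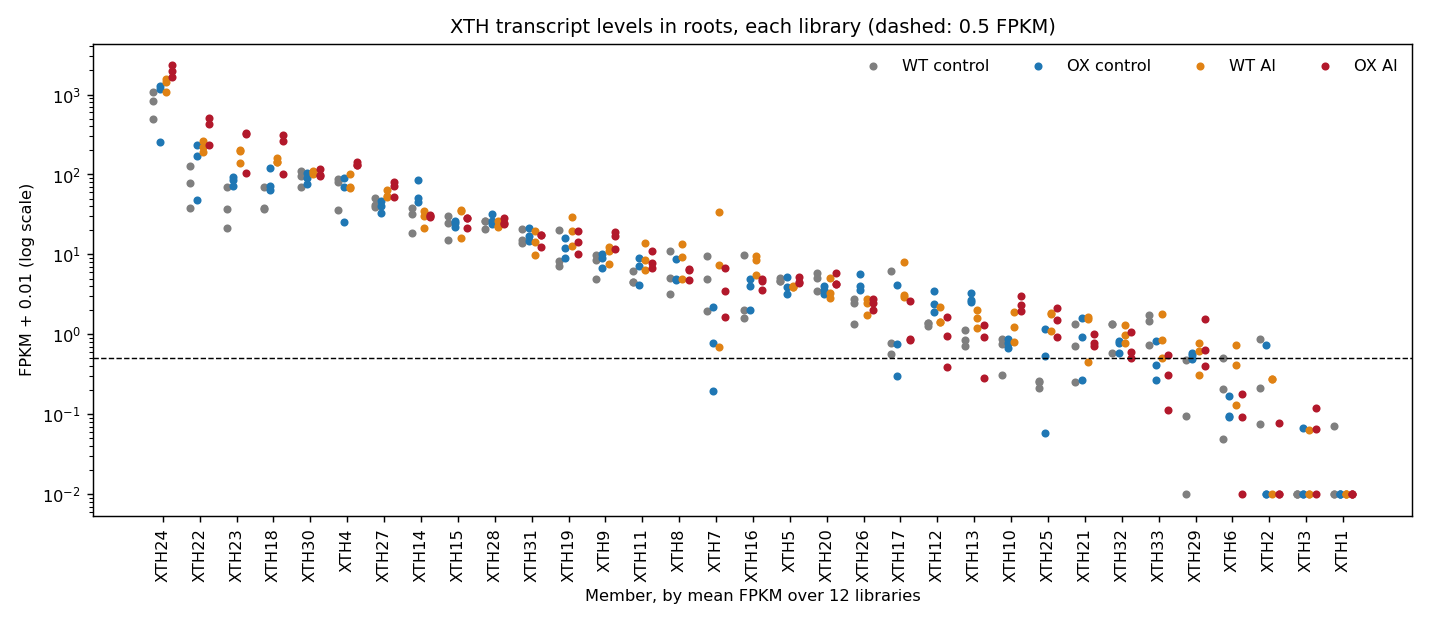
FPKM of all 33 members in each of the 12 libraries, on a log axis to which 0.01 was added so that values of 0 can be drawn, with members ordered by their mean and the 0.5 FPKM limit dashed. *XTH24* lies at the top with 256 to 2313 FPKM, and *XTH1*, *XTH2*, *XTH3* and *XTH6* have fewer than 3 libraries at the limit.

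The summed FPKM of the family was 840 to 2001 in the 6 control libraries and 2054 to 3809 in the 6 Al libraries, without overlap. The lowest sums were those of OX control replicate 1 (840 FPKM) and WT control replicate 1 (1069 FPKM). Without *XTH24*, the sums were 501 to 808 FPKM in control and 872 to 1665 FPKM in Al libraries, which did not overlap either. These sums mostly reflect a few members. *XTH24*, *XTH22*, *XTH23*, *XTH18* and *XTH30* together made up 69.6% to 84.9% of the family sum in control libraries. In Al libraries they made up 83.4% to 89.7%. Both control replicates numbered 1 also stood apart in the Al-inducible genes *ALMT1*, *MATE* and *ALS3*, whose summed FPKM was 26.8 (WT) and 47.1 (OX) in them and 170 to 293 in the 4 other control libraries. With Al the sums were 303 to 444 in WT and 355 to 580 in OX roots. In WT control replicates 2 and 3, *MATE* (51.5 and 58.1 FPKM) overlapped WT Al (55.6 to 86.1). So did *ALS3* (23.1 and 37.4 against 33.9 to 44.5), while *ALMT1* did not (95.0 and 121 against 209 to 314). In OX roots none of the 3 genes overlapped between control and Al. All 3 of these genes were above 0 in every library. The 6 root markers (*PYK10*, *SHR*, *SCR*, *PLT1*, *CASP1* and *WOX5*) were present in every library, with sums from 756 to 2520 FPKM. Most of each sum was *PYK10*. It had 1687 to 2376 FPKM in WT control, 843 to 1439 in WT Al, 1160 to 1925 in OX control and 667 to 1207 in OX Al. The sum of 8 green tissue markers was 304 FPKM in WT control replicate 1, 499 in WT Al replicate 2 and 348 in WT Al replicate 3, against 37.2 to 94.6 in the 9 other libraries. The part of these differences in the results below was not tested, except where values without such a library are given.

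Groups were compared with limma on log2(FPKM + 0.5), on which fold changes of low genes are understated, in one fit of all 12 libraries. The Benjamini-Hochberg adjustment ran over all 20773 genes tested. Calls needed both an adjusted p no higher than 0.05 and a log2 change of 1 or more in either direction. Below, a log2 change is the difference of group means on this scale, and its error is the SE of the fit.

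The first comparison asked what Al did to the family, averaged over both genotypes. *XTH18*, *XTH22*, *XTH23* and *XTH25*, all of group II, rose with Al, and no member fell. These 4 of 29 members stand against 0.876% of all genes tested that were called higher and 1.65% called in either direction. The median log2 change was 0.478 over the 29 members and -0.002 over all genes. A higher mean with Al was found in 20 members and a lower one in 9, against 10298 and 10475 of all genes. *XTH10* and *XTH27* passed the adjusted p alone, with changes under the limit of 1.

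*XTH23* encodes an enzyme close to the product of *TCH4*. It had 68.9, 37.3 and 21.2 FPKM in the WT control libraries, 84.6, 93.0 and 71.8 in OX control, 202, 195 and 139 in WT Al and 105, 318 and 331 in OX Al. All 6 Al libraries lay above all 6 control libraries, with OX Al replicate 1 the lowest of them. The rise was 1.81 ± 0.32 on the log2 scale (SE, adjusted p = 0.0101, limma), from a mean of 42.5 ± 24.3 to 179 ± 34.4 FPKM in WT and from 83.2 ± 10.7 to 251 ± 127 FPKM in OX roots (SD, n = 3 each).

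*XTH18*, known for its part in the elongation of Arabidopsis roots, had 69.1, 38.0 and 36.6 FPKM in WT control, 119, 63.1 and 72.0 in OX control, 143, 145 and 162 in WT Al and 102, 259 and 313 in OX Al. The WT groups were apart, while OX Al replicate 1 lay below OX control replicate 1. Over both genotypes it rose by 1.5 ± 0.28 on the log2 scale (SE, adjusted p = 0.0120, limma). The calls of *XTH18* and *XTH23* held with any of the 12 libraries left out in turn, with adjusted p up to 0.0411 and 0.0338.

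*XTH22* had 37.9, 78.1 and 129 FPKM in WT control, 47.9, 170 and 237 in OX control, 266, 190 and 220 in WT Al and 230, 431 and 506 in OX Al. Its lowest value in either genotype was in control replicate 1, and in OX roots the highest control value lay above the lowest Al value. It rose by 1.59 ± 0.40 on the log2 scale (SE, adjusted p = 0.0473, limma). The call was lost without the filter on low values (adjusted p = 0.0677), without the variance trend (0.0609) and with voom on the fragments (0.0530), and when any library other than WT control replicate 3, OX control replicate 3 or OX Al replicate 1 was left out (adjusted p up to 0.127).

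*XTH25*, which lies between *XTH13* and *XTH22*, was a low gene. It had 0.249, 0.247 and 0.203 FPKM in WT control (4 or 5 fragments per library), 0.0493, 0.522 and 1.17 in OX control (1 to 23 fragments), 1.81, 1.86 and 1.11 in WT Al and 0.916, 2.13 and 1.48 in OX Al. The WT groups were apart, with 0.249 FPKM the highest value in control and 1.11 the lowest with Al. In OX roots a control library reached into the range of Al. The change was 1.24 ± 0.26 on the log2 scale (SE, adjusted p = 0.0213, limma). It was 0.88 and under the limit with a pseudocount of 1, and the call was lost when WT Al replicate 1 or 2 or OX Al replicate 2 or 3 was left out (adjusted p up to 0.0676).

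*XTH27* (AT2G01850), of group IIIB, had 50.8, 41.0 and 39.6 FPKM in WT control, 32.6, 46.8 and 40.0 in OX control, 51.8, 63.7 and 53.1 in WT Al and 51.9, 80.5 and 72.3 in OX Al. Like *XTH23*, it was higher in all 6 Al than in all 6 control libraries, which held for 1.05% of all genes, but by a log2 change of only 0.56 ± 0.13 (SE, adjusted p = 0.0304, limma). *XTH10* (AT2G14620) had 0.866, 0.301 and 0.750 FPKM in WT control, 0.772, 0.864 and 0.665 in OX control, 1.23, 1.88 and 0.788 in WT Al and 1.95, 2.35 and 2.98 in OX Al. Its OX groups were apart and its WT groups overlapped, with a log2 change of 0.92 ± 0.19 (SE, adjusted p = 0.0203, limma). With a pseudocount of 0.1 (1.235), with voom (1.33), without WT Al replicate 3 (1.03) or without both control replicates numbered 1 (log2 change at the limit of 1), *XTH10* passed both limits.

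The most abundant member, *XTH24*, had 494, 1089 and 819 FPKM in WT control, 256, 1282 and 1169 in OX control, 1452, 1558 and 1091 in WT Al and 1640, 2313 and 1994 in OX Al. Within each genotype every Al library was above every control library, in WT roots barely so (1091 FPKM in Al replicate 3 and 1089 in control replicate 2), and both lowest values were in control replicates 1. The log2 change of 1.13 was not called (SE 0.385, adjusted p = 0.133, limma). *XTH30* (AT1G32170) had 111, 95.9 and 68.8 FPKM in WT control, 76.9, 91.2 and 103 in OX control, 107, 109 and 102 in WT Al and 98.0, 96.5 and 116 in OX Al. Its groups overlapped throughout.

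**Figure D2:**
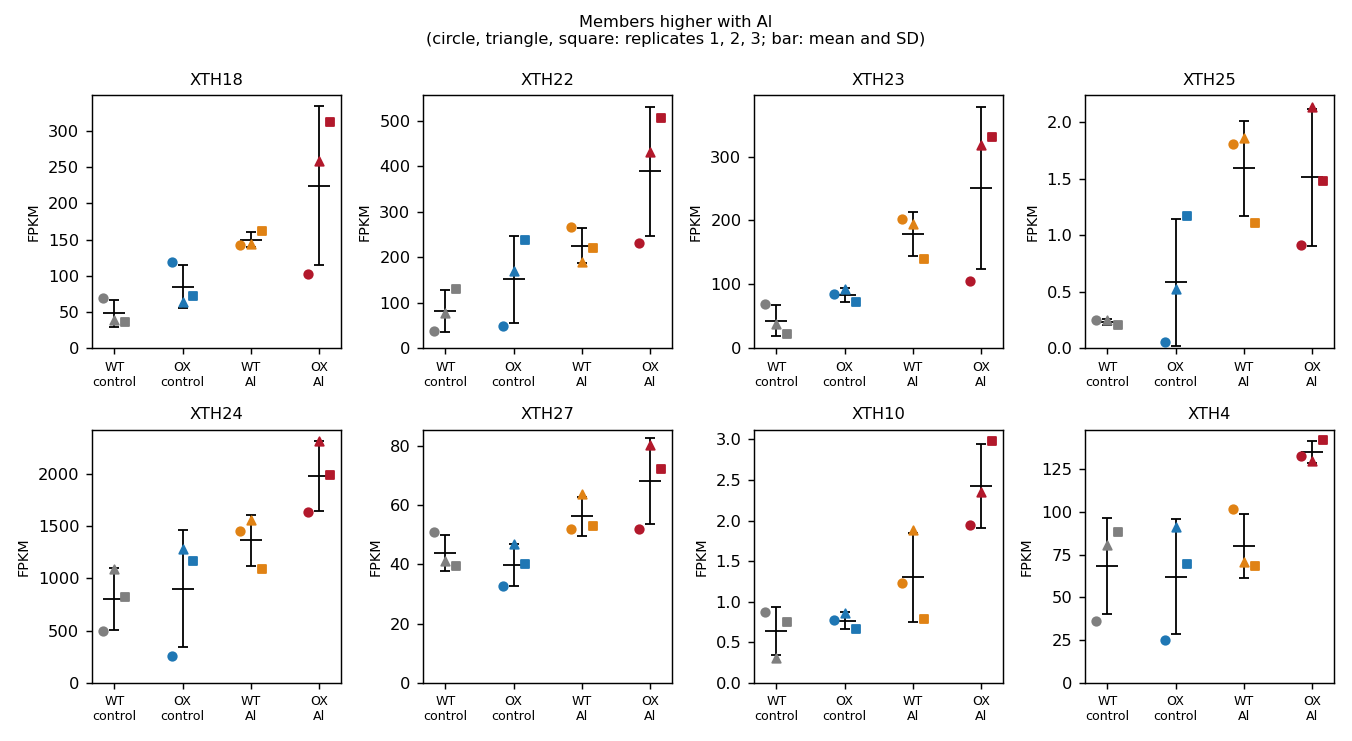
FPKM of 8 members with higher means under Al, one panel per member, by group. Points are the 3 libraries and bars the mean and SD, and *XTH23* and *XTH27* have all 6 Al libraries above all 6 control libraries.

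In WT roots alone, no member was called with Al (0 of 29, limma), against 0.332% of all genes. At an unadjusted p under 0.05 there were 6 members (12.5% of all genes), and voom called 0 as well (0.221% of all genes). The adjusted p of *XTH23* was 0.0725 (log2 change 2.20, SE 0.46), that of *XTH18* 0.0912 (1.695, SE 0.39) and that of *XTH25* 0.105 (1.49, SE 0.37). Without both control replicates numbered 1, *XTH16*, *XTH18* and *XTH23* were called, as were 0.696% of all genes. Without WT control replicate 1 alone, *XTH16* and *XTH23* were called (0.378% of all genes), and without OX Al replicate 1, which enters this comparison only through the common spread, *XTH18* and *XTH23* were (0.735%).

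Without regard to the test, 9 of 29 members were higher in every WT Al than in every WT control library (8.25% of all genes) and 1 was lower (8.17%). The 9 were *XTH18*, *XTH22*, *XTH23*, *XTH24*, *XTH25* and *XTH27*, described above, and *XTH11*, *XTH12* and *XTH13*. For *XTH12* the closest WT Al and WT control libraries had the same number of fragments, so their order was not detectable at this depth. *XTH11* (AT3G48580) had 6.2, 4.48 and 4.45 FPKM in WT control and 8.55, 14.0 and 6.31 in WT Al (log2 change 0.81 ± 0.32 SE, adjusted p = 0.322, limma), so the closest libraries were nearly level. In OX roots it had 4.09, 7.10 and 9.05 FPKM in control and 6.68, 10.9 and 7.72 with Al, with overlap. *XTH5* (AT5G13870) was the lower one, with 4.60, 5.05 and 4.68 FPKM in WT control and 3.90, 4.02 and 3.87 in WT Al, a log2 change of -0.25 ± 0.155 (SE, adjusted p = 0.561, limma).

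In OX roots alone, *XTH13* fell with Al and no member was called higher. This 1 of 29 members stands against 0.862% of all genes called in either direction and 0.578% called lower. Voom on the fragments called 0 members here (0.631% of all genes), and 13 members had an unadjusted p under 0.05 in the limma test on FPKM, against 13.7% of all genes. Without OX Al replicate 1, 3 members were called higher (*XTH10*, *XTH18* and *XTH23*), against 1.07% of all genes, and 2 lower (*XTH12* and *XTH13*), against 1.28%. By the position of the libraries, 7 members were higher in every OX Al than in every OX control library (9.11% of all genes) and 4 were lower (11.4%).

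The 7 were *XTH10*, *XTH23*, *XTH24* and *XTH27*, described above, and *XTH4*, *XTH9* and *XTH20*. *XTH4* (AT2G06850), known from growing and woody tissues, had 25.1, 91.3 and 69.6 FPKM in OX control and 133, 130 and 142 in OX Al, where its libraries were close together (log2 change 1.3 ± 0.435 SE, adjusted p = 0.196, limma). In WT roots it had 36.1, 80.5 and 87.9 FPKM in control and 102, 70.6 and 68.3 with Al. Only its OX groups were apart, and its lowest value in each genotype was again in control replicate 1.

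*XTH9* (AT4G03210) had 9.06, 6.73 and 10.003 FPKM in OX control and 11.8, 17.1 and 19.1 in OX Al (log2 change 0.85 ± 0.27 SE, adjusted p = 0.17, limma), and 8.53, 4.95 and 9.83 in WT control and 10.96, 7.52 and 12.2 in WT Al, where the groups overlapped. *XTH20* (AT5G48070), a close relative of *XTH17* and *XTH18*, had 4.03, 3.17 and 3.56 FPKM in OX control and 4.20, 4.29 and 5.77 in OX Al, a log2 change of 0.355 ± 0.23 (SE, adjusted p = 0.555, limma). In WT roots its libraries overlapped, with 5.03, 3.50 and 5.85 FPKM in control and 3.26, 2.83 and 5.04 with Al. *XTH20* was not called in any comparison.

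The 4 members lower in every OX Al than in every OX control library were *XTH12*, *XTH13*, *XTH14* and *XTH26*, whose transcripts are known from root hairs and the root hair zone of Arabidopsis. The same 4 were also higher in every OX control than in every WT control library, and their mean was highest in OX control roots. The 2 comparisons share the OX control libraries and are not independent of each other. *XTH13* had 1.11, 0.844 and 0.703 FPKM in WT control (13 to 21 fragments), 3.26, 2.68 and 2.55 in OX control (47 to 62 fragments), 1.98, 1.18 and 1.61 in WT Al (22 to 37 fragments) and 1.3, 0.277 and 0.927 in OX Al (5 to 24 fragments). Its OX control libraries lay above all 9 others. With Al in OX roots the log2 change was -1.40 ± 0.29 (SE, adjusted p = 0.0473, limma), and without Al the OX mean was 3.19 times the WT mean (log2 change 1.27 ± 0.29 SE, adjusted p = 0.380, limma). The call was lost when any library other than WT control replicate 1 or OX Al replicate 1 was left out (adjusted p up to 0.173). It was also lost with a pseudocount of 0.1 (adjusted p = 0.0695), without the filter (0.0664), with only the 6 OX libraries (0.109), without both control replicates numbered 1 (0.122) and with voom (0.0629).

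*XTH12*, its neighbor and close copy, had 1.39, 1.38 and 1.26 FPKM in WT control, 3.51, 1.89 and 2.37 in OX control, 1.40, 1.40 and 2.18 in WT Al and 1.63, 0.376 and 0.950 in OX Al (7 to 31 fragments). OX control was the highest group, although WT Al replicate 3 reached into it, and every OX Al library was below every OX control library. The OX mean without Al was 1.93 times that of WT (log2 change 0.71 ± 0.31 SE, adjusted p = 1, limma), and the change with Al in OX roots was -1.115 (SE 0.31, adjusted p = 0.111, limma). Without OX Al replicate 1, *XTH12* was called lower with Al in OX roots (adjusted p = 0.0283).

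*XTH14* was the most abundant of the 4, with 37.9, 31.6 and 18.7 FPKM in WT control, 44.8, 51.5 and 84.6 in OX control, 34.8, 21.4 and 30.0 in WT Al and 30.8, 30.3 and 29.5 in OX Al. All OX control libraries lay above all others, and the 3 OX Al libraries were nearly equal. The OX mean without Al was 2.05 times that of WT (log2 change 1.03 ± 0.28 SE, adjusted p = 0.544, limma), and the change with Al in OX roots was -0.93 (SE 0.28, adjusted p = 0.145, limma). *XTH26* (AT4G28850) had 1.35, 2.48 and 2.74 FPKM in WT control, 4.05, 3.61 and 5.62 in OX control, 2.77, 1.76 and 2.47 in WT Al and 2.76, 2.03 and 2.46 in OX Al. Again OX control stood above the other groups, which were level with each other, with an OX mean without Al of 2.02 times that of WT (log2 change 0.895 ± 0.25 SE, adjusted p = 0.544, limma) and a change with Al in OX roots of -0.74 (SE 0.25, adjusted p = 0.190, limma).

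Root hair markers were highest in the same group. The summed FPKM of *COBL9*, *EXPA7*, *EXPA18*, *PRP3*, *LRX1* and *RSL4* was 88.5 to 109 in OX control, against 19.8 to 51.4 in WT control, 20.7 to 52.1 in OX Al and 38.1 to 57.6 in WT Al. All 6 were detected in every group, 5 of 6 were higher in every OX control than in every WT control library (3.93% of all genes), and all 6 were lower in every OX Al than in every OX control library (11.4%). Of them 1 was called lower with Al in OX roots, against 0.578% of all genes. This was *EXPA18*, a root hair expansin (log2 change -1.54 ± 0.32 SE, adjusted p = 0.0469, limma). The part of root hair number or maturity in the levels of the 4 members was not tested.

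**Figure D3:**
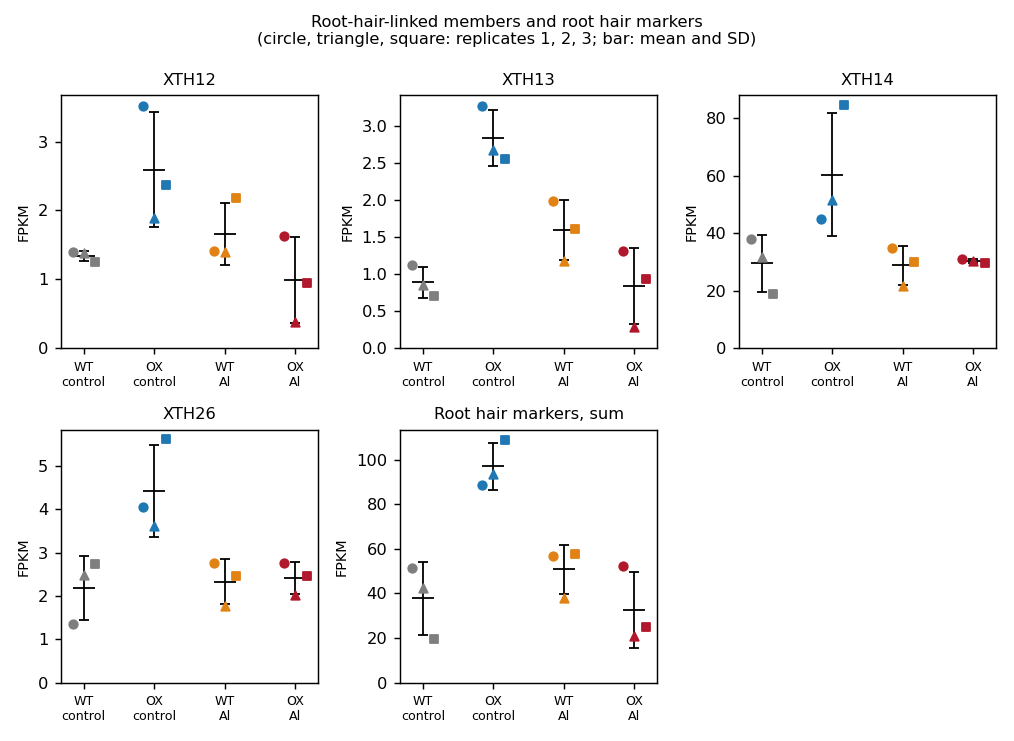
FPKM of *XTH12*, *XTH13*, *XTH14* and *XTH26* and summed FPKM of 6 root hair markers, by group, with the 3 libraries as points and the mean and SD as bars. OX control is the group with the highest mean in all 5 panels, and the marker sums there are 88.5 to 109 FPKM.

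Whether Al changed the genotype difference was tested as an interaction. No member was called (0 of 29, limma), and 0% of all genes were, since the lowest adjusted p over all genes was 0.913. Voom called 0 members too. The 4 members with an unadjusted p under 0.05, against 4.98% of all genes, were *XTH12* (interaction of -1.33 on the log2 scale), *XTH13* (-1.98), *XTH14* (-0.93) and *XTH26* (-0.845). Their adjusted p was 0.913 to 0.940.

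The comparison of OX with WT roots under Al asked which members differed with *GmNTL4* overexpression in the stress under study. No member was called (0 of 29, limma), against 0.0385% of all genes. The count at an unadjusted p under 0.05 was 4 (10.8% of all genes), and voom called 0. The median log2 change was 0.05 over the members and -0.032 over all genes. In OX, 15 members were higher and 14 lower, against 9302 and 11471 of all genes. Every OX library was above every WT library for 4 members (8.77% of all genes) and below for 2 members (10.8%).

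The 4 higher members were *XTH4*, *XTH10* and *XTH24*, whose values are given above, and *XTH5*. *XTH4* had 130 to 142 FPKM in OX Al and 68.3 to 102 in WT Al, a log2 change of 0.77 ± 0.435 (SE, adjusted p = 0.543, limma). For *XTH10* the log2 change was 0.73 ± 0.27 (SE, adjusted p = 0.392, limma), and for *XTH24* it was 0.54 ± 0.54 (SE, adjusted p = 0.737, limma). *XTH5* differed least, with 4.39, 5.22 and 4.47 FPKM in OX Al, 3.90, 4.02 and 3.87 in WT Al and 3.86, 3.22 and 5.15 in OX control, a log2 change of 0.225 under Al (SE 0.155, adjusted p = 0.608, limma). For none of these 4 were the OX and WT control libraries apart.

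The 2 lower members were *XTH16* and *XTH17*. *XTH17* (AT1G65310), one of the Al-linked members, had 6.2, 0.564 and 0.772 FPKM in WT control, 4.13, 0.746 and 0.291 in OX control, 3.11, 2.92 and 7.99 in WT Al and 0.872, 0.841 and 2.58 in OX Al. Under Al the groups were apart, with the highest OX library just below the lowest WT library, while in control both replicates numbered 1 were several times above the others. The log2 change under Al was -1.40 (SE 0.78, adjusted p = 0.538, limma), the largest fall among the members, and it ranged from -1.80 to -0.98 with single libraries left out. Its copy *XTH18* had a log2 change of 0.43 ± 0.39 (SE, adjusted p = 0.703, limma).

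*XTH16* (AT3G23730) had 9.88, 1.59 and 2.02 FPKM in WT control, 4.89, 2.03 and 3.97 in OX control, 9.5, 5.53 and 8.57 in WT Al and 4.71, 3.60 and 4.98 in OX Al. Here too the groups were apart under Al, and the highest value was in WT control replicate 1. The log2 change under Al was -0.74 (SE 0.51, adjusted p = 0.611, limma). Green tissue sums were high in WT Al replicates 2 and 3 and lowest of all libraries in WT Al replicate 1, which had 9.5 FPKM of *XTH16* and 3.11 FPKM of *XTH17*. The part of green tissue in the levels of both genes was not tested. *XTH33* (AT1G10550), known for a membrane anchor that holds it at the cell surface, had 1.76, 0.727 and 1.44 FPKM in WT control, 0.821, 0.256 and 0.400 in OX control, 0.838, 0.492 and 1.77 in WT Al and 0.549, 0.102 and 0.301 in OX Al (2 to 11 fragments). Its OX means were the lower ones in both conditions and single libraries overlapped, with a log2 change of -0.86 in each (SE 0.37, adjusted p = 0.438 under Al and 1 in control, limma).

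The other members that the study names were closer between genotypes. *XTH31* (AT3G44990) had 21.1, 14.0 and 15.0 FPKM in WT control, 21.4, 17.0 and 14.6 in OX control, 14.3, 9.91 and 19.8 in WT Al and 12.5, 17.6 and 17.2 in OX Al. *XTH15* (AT4G14130) had 30.0, 14.9 and 24.7 FPKM in WT control, 26.1, 21.8 and 24.5 in OX control, 35.7, 16.1 and 35.2 in WT Al and 21.1, 28.2 and 28.7 in OX Al. All groups of both genes overlapped. The log2 changes under Al were 0.14 (SE 0.25, adjusted p = 0.861, limma) for *XTH31*, -0.08 (SE 0.31, adjusted p = 0.940, limma) for *XTH15* and 0.10 (SE 0.28, adjusted p = 0.919, limma) for *XTH14*, and each took the other sign when single libraries were left out.

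**Figure D4:**
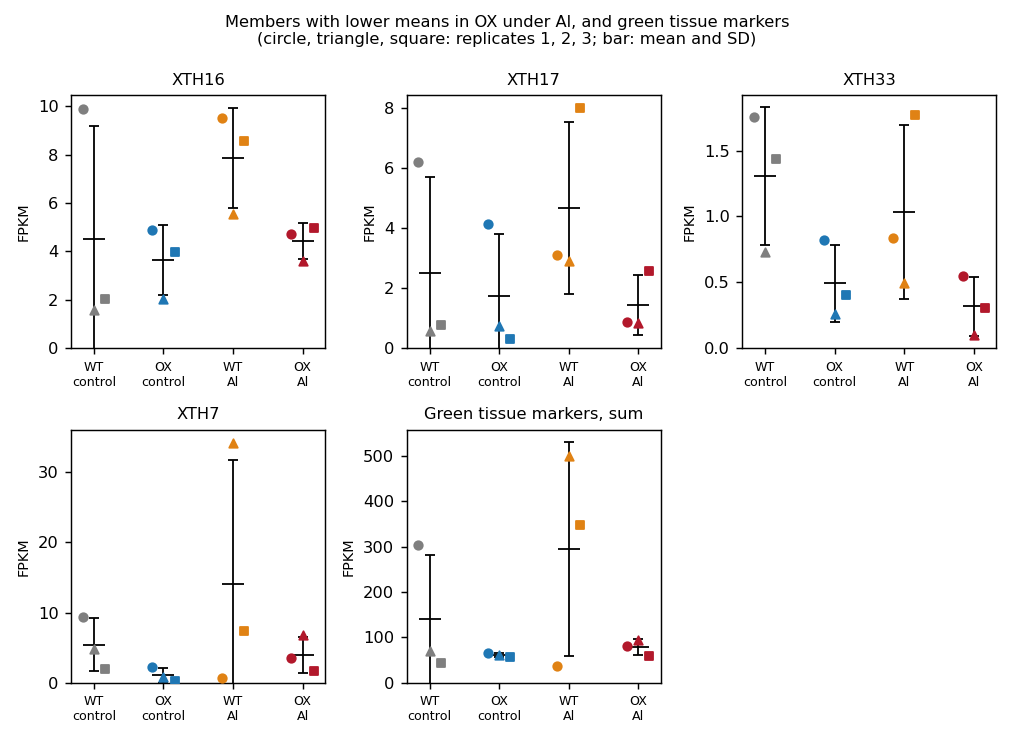
FPKM of *XTH16*, *XTH17*, *XTH33* and *XTH7* and summed FPKM of 8 green tissue markers, by group, with the 3 libraries as points and the mean and SD as bars. *XTH16* and *XTH17* are lower in every OX Al than in every WT Al library, and *XTH7* peaks in the library with the highest green tissue sum (499 FPKM).

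*XTH7* (AT4G37800) varied widely between libraries of one group. It had 9.42, 4.86 and 1.96 FPKM in WT control, 2.22, 0.768 and 0.187 in OX control, 0.693, 34.1 and 7.35 in WT Al and 3.51, 6.79 and 1.64 in OX Al. The 3 WT libraries with high green tissue markers were the 3 with the highest *XTH7*, and WT Al replicate 1, with the lowest green tissue sum, had the lowest *XTH7* of the 6 WT libraries. Its log2 change in OX against WT was -0.79 under Al (SE 1.03, adjusted p = 0.804, limma) and -1.93 in control (SE 1.03, adjusted p = 1, limma). The part of green tissue in these values was not tested.

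Without Al, no member was called between OX and WT roots (0 of 29, limma), against 0.0433% of all genes. An unadjusted p under 0.05 was found for 6 members (4.71% of all genes), and voom called 0. In 6 members every OX control library was above every WT control library (3.93% of all genes) and in 0 members every one was below (3.91%). These were *XTH12*, *XTH13*, *XTH14* and *XTH26*, *XTH23*, the neighbor of *XTH14*, and *XTH29*. *XTH23* had 71.8 to 93.0 FPKM in OX and 21.2 to 68.9 in WT control, a log2 change of 1.11 ± 0.46 (SE, adjusted p = 1, limma). *XTH29* (AT4G18990) had 0.0852, 0.465 and 0 FPKM in WT control (0 to 11 fragments), 0.548, 0.581 and 0.480 in OX control (11 to 13 fragments), 0.603, 0.774 and 0.301 in WT Al and 0.392, 0.623 and 1.53 in OX Al. Its closest OX and WT control libraries had the same number of fragments, 11, so their order was not detectable at this depth.

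Averaged over both conditions, 0 of 29 members were called between the genotypes (limma), against 0.106% of all genes. There were 6 members at an unadjusted p under 0.05 (9.68% of all genes), and voom called 0. In 0 members were all 6 OX libraries on one side of all 6 WT libraries. The remaining root-expressed members had no group apart from another in the 4 comparisons of 3 with 3 libraries. *XTH8* had 3.17 to 13.6 FPKM, *XTH19* 7.10 to 29.2, *XTH21* 0.245 to 1.64, *XTH28* 20.9 to 31.9 and *XTH32* 0.503 to 1.35. *XTH28*, known for a role in stamen filaments, was among the steadiest members, with group means from 23.3 to 27.3 FPKM.

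**Figure D5:**
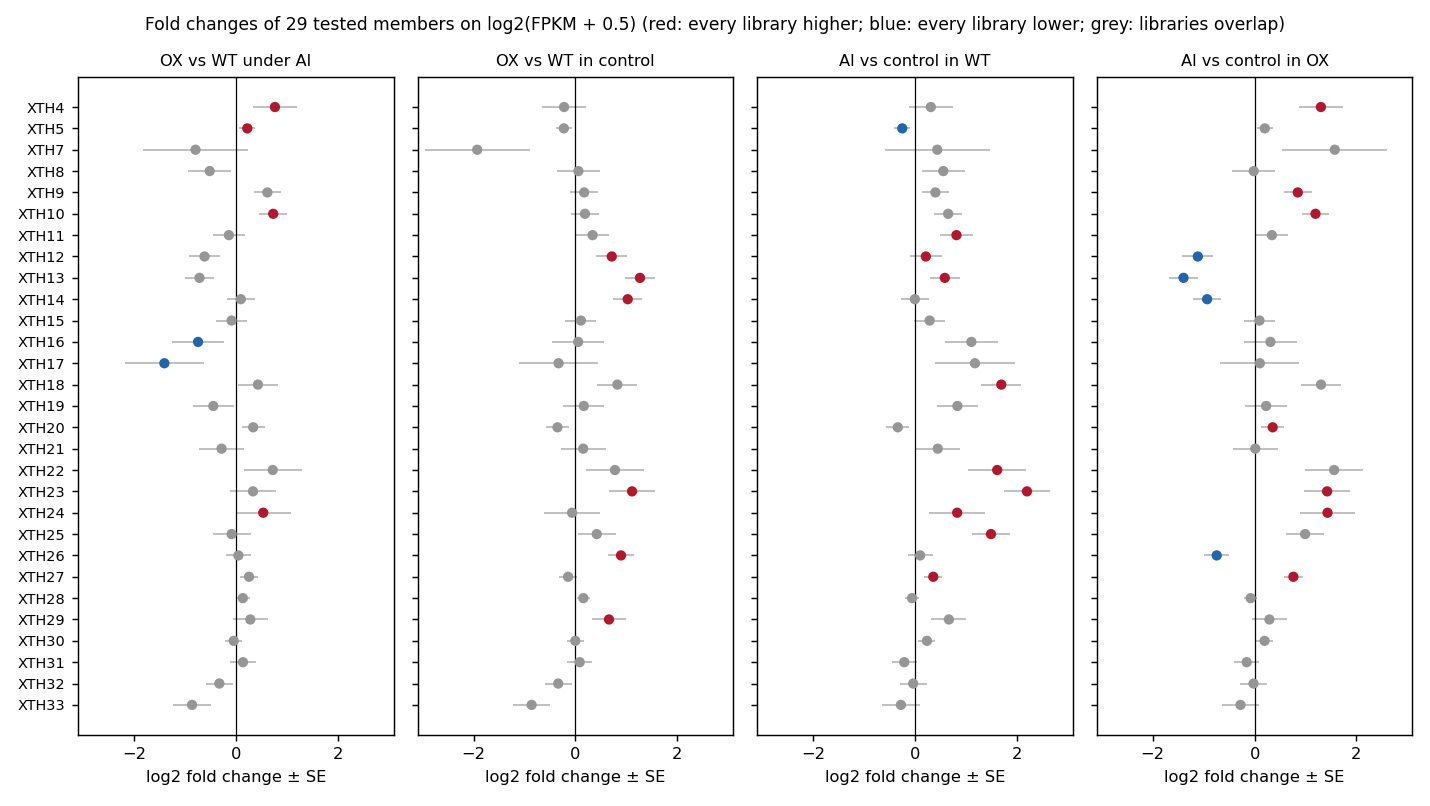
Log2 fold change and SE of the 29 tested members on log2(FPKM + 0.5) in the 4 comparisons of 3 with 3 libraries. Red points mark members with every library of the first group higher (4, 6, 9 and 7 members), blue points those with every library lower (2, 0, 1 and 4 members) and grey points those whose libraries overlap.

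The enzymes that build, decorate and trim xyloglucan were followed beside the XTH family in a list of 20 genes, all 20 of which were tested. Averaged over genotypes, 1 of 20 rose with Al and 0 fell, against 0.876% of all genes called higher. This was *XXT1* (AT3G62720), which adds xylose to the glucan backbone. It had 19.98, 18.8 and 19.8 FPKM in WT control, 18.6, 25.4 and 25.9 in OX control, 44.1, 44.6 and 60.4 in WT Al and 32.1, 74.7 and 78.0 in OX Al. All 6 Al libraries were above all 6 control libraries, with a log2 change of 1.3 ± 0.20 (SE, adjusted p = 0.00557, limma). *CSLC4* (AT3G28180), which makes the backbone, had 8.89 to 17.0 FPKM in control and 14.3 to 33.2 with Al, and its log2 change of 0.78 was under the limit (SE 0.18, adjusted p = 0.0332, limma). The next largest change was that of *BGAL10* (AT5G63810), a galactosidase that trims xyloglucan (0.40, SE 0.17, adjusted p = 0.226, limma).

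In each genotype alone, 0 of the 20 were called (limma), with 5 in WT and 1 in OX roots at an unadjusted p under 0.05 (12.5% and 13.7% of all genes). *XXT1* had log2 changes of 1.31 in WT (adjusted p = 0.0787, limma) and 1.29 in OX roots (adjusted p = 0.0579, limma), and *CSLC4* of 1.07 (adjusted p = 0.0992, limma) and 0.50 (adjusted p = 0.441, limma). *CSLC12* (AT4G07960), another gene of the backbone synthase family, was lower in every OX Al than in every OX control library (-0.67, SE 0.34, adjusted p = 0.431, limma), and the fucosidase gene *AXY8* (AT4G34260) had a change of 0.47 in WT roots (adjusted p = 0.499, limma). Between OX and WT roots 0 of the 20 were called under Al, in control or on average (limma), with 3, 1 and 1 at an unadjusted p under 0.05 (10.8%, 4.71% and 9.68% of all genes).

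Under Al, 19 of the 20 had a lower mean in OX than in WT roots, as had 11471 of all 20773 genes tested. The median log2 change was -0.254 over the 20 and -0.032 over all genes. The largest in size were *AXY8* (-0.55, SE 0.26, adjusted p = 0.471, limma), *CSLC12* (-0.49, SE 0.34, adjusted p = 0.614, limma) and the xyloglucan acetyltransferase gene *AXY4* (-0.40, SE 0.195, adjusted p = 0.485, limma). In control the numbers were 10 higher and 10 lower, against 10071 and 10702 over all genes. There the largest changes were in *CSLC12* (0.58), *XUT1* (AT1G63450, 0.47), a galacturonosyltransferase gene of root hair xyloglucan, and *AXY4* (AT1G70230, -0.41). Averaged over both conditions, *AXY4* (-0.41), *AXY8* (-0.29) and *CSLC5* (AT4G31590, -0.26) led. The interaction was called in 0 of the 20 (limma), with 2 at an unadjusted p under 0.05 (4.98% of all genes) and the largest values in *CSLC12* (-1.07), *XUT1* (-0.61) and *CSLC4* (-0.58).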

How the data were processed

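Groups of root RNA-seq libraries follow the genotype and treatment labels. The deposited values are FPKM. The authors aligned reads to TAIR10 with HISAT2, ran HTSeq to count them by gene (version 0.6.0 in the submitters' processing notes) and converted the counts to FPKM. Whole numbers of fragments fitted the FPKM of 100% of 25872 genes (tolerance 0.001). They are the smallest whole numbers that fit a gene's values, so a factor common to all its libraries would go unseen. A gene with a single non-zero value, such as *XTH1*, always fits, so no count can be read from it.

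Linear models of log2(FPKM + 0.5), one mean per group, were fitted to all 12 libraries with limma 3.58.1 in R 4.3.3, with a variance trend, for the 20773 genes that reached 0.5 FPKM in 3 or more libraries, and tested on simulated data. With Benjamini-Hochberg adjustment over these genes, calls needed an adjusted p no higher than 0.05 and a log2 change of 1 or more in size, as in the methods. Limma voom on the fragments was an alternative. The others were pseudocounts of 0.1 and 1, no filter, a mean FPKM of at least 1, quantile and median-ratio scaling, a fit of only the groups compared, a replicate block, no trend, adjusted p alone, and leaving out single libraries or both control replicates numbered 1. Quantile and median-ratio scaling moved the median of all genes by less than 0.1 on the log2 scale.

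Values in every library are given for members that were called, whose libraries were apart in a comparison of 3 with 3, that the paper names (*XTH14*, *XTH15*, *XTH17*, *XTH31* and *XTH33*) or that were among the 5 most abundant. *XTH7* was added after its values were seen. Xyloglucan genes are named when called or among the 3 largest changes in a comparison. The members, gene lists and tests were chosen with earlier results of these data known. Positions and sequences are from RefSeq TAIR10.1. Python 3.11.15, pandas 2.3.3, Biopython 1.88 and matplotlib 3.10.9 were used. Authors' comparisons were not used, and the *GmNTL4* transgene was not analysed here.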

Additional observations from a re-analysis of the deposited data

Results flagged for a closer look

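In *XTH12* and *XTH13* every Al library lay above every control library in WT roots and below every control library in OX roots. The difference between the 2 changes, as an interaction, was -1.33 for *XTH12* (unadjusted p = 0.0110, adjusted p = 0.940, limma) and -1.98 for *XTH13* (unadjusted p = 0.000516, adjusted p = 0.913, limma), so neither passed the test of the difference itself. In WT roots the closest *XTH12* libraries of the 2 groups were 1.39 FPKM in control and 1.40 FPKM with Al, from 27 fragments each. The order of these libraries was therefore not detectable at this depth.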

How the results depend on the processing

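Between OX and WT roots 0 members were called under Al, in control and on average under each setting tried, and the interaction called 0. With Al in WT roots (0 called), the fit to only the groups compared called 1 (*XTH18*, with 0.358% of all genes called), and leaving out both control replicates numbered 1 called 3 (0.696%). With Al in OX roots (1 called), 0 were called with a pseudocount of 0.1, without the filter, with only the groups compared, with voom and without both control replicates numbered 1. Averaged over genotypes (4 called), 7 were called without both control replicates numbered 1, *XTH10*, *XTH16* and *XTH17* joining the 4, while 1.75% of all genes were called (1.65% with all libraries). With fewer libraries groups are apart more often in all genes. Without those 2 libraries, 15 members (6 before) were apart between genotypes in control, against 36.8% of all genes (7.85% before), 16 (10 before) with Al in WT roots, against 34.9% (16.4% before), and 4 (2 before) over both genotypes, against 5.77% (2.94% before). Of the xyloglucan genes, 1 was called with Al in WT roots with only the groups compared, 1 in OX roots with the replicate block, and 2 on average by adjusted p alone.

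Leaving out single libraries gave 0 to 2 members called with Al in WT roots (0% to 0.735% of all genes), 0 to 5 in OX roots (0.0145% to 2.35%, 5 members and the highest share without OX Al replicate 1) and 2 to 4 on average (1.08% to 2.33%). For xyloglucan genes it gave 0 to 1 with Al in WT and in OX roots. Members with libraries apart numbered 7 to 14 for OX against WT under Al (26.5% to 37.3% of all genes), 7 to 12 in control (13.3% to 18.8%), 10 to 16 with Al in WT (22.7% to 34.9%), 11 to 16 in OX (25.3% to 37.5%) and 2 to 4 on average (3.03% to 4.45%). Under Al, OX against WT ranged from -0.096 to 0.248 for *XTH14* (reversed without WT Al replicate 2), from -0.105 to 0.378 for *XTH31* (reversed without WT Al replicate 2) and from -0.455 to 0.107 for *XTH15*, which reversed without WT Al replicate 1 (0.107), WT Al replicate 3 (0.097) or OX Al replicate 1 (0.057). Of 1182 alternative values for 50 single tests, 1129 kept their direction and side of the limits, 16 gained and 32 lost a call, and 5 reversed.

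Replicate numbers recur between groups, but residuals of same-numbered libraries correlated from -0.247 to 0.286 over 18 pairs, so they were not taken as pairs. With the replicate block, 1 member was called with Al in OX roots, 4 on average and 0 in the other comparisons, as without it. Members under 1 FPKM rest on few fragments. The causes of these differences were not tested.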
